A study of Mus musculus with 8 samples.

Results

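The genes described here are the 5 AP-2 transcription factor genes of the mouse, Tfap2a to Tfap2e, and Emx1 and Sall3, a homeobox and a zinc finger gene listed among the transcription factors of the distal tubule. They are 7 of the 35976 genes in the deposited table, matched by symbol, and they were selected on earlier mutant-to-control differences in these libraries. The mutant-to-control values of these 7 genes are therefore given as a description, with no test.

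The libraries came from kidneys of mice at postnatal day 3. Controls carried the genotype Slc12a3 Cre/+; C1 +/+ and mutants Slc12a3 Cre/+; C1 YAP/+, so the Cre allele at Slc12a3, which encodes the thiazide-sensitive salt transporter of distal convoluted tubule cells, was common to both groups, and the YAP allele was in the mutants alone. What C1 stands for is not stated, and the series title describes constitutive Yap1 activation in distal nephron segments. Each genotype had 4 libraries, 2 from males and 2 from females, numbered replicate 1 and replicate 2 in each group. The labels do not say whether these came from separate animals, so the p-values below measure the spread between libraries, which may be technical. Because RNA of the organ was sequenced in bulk, fewer cells of a type and less RNA per cell cannot be told apart.

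AP-2 proteins bind DNA as dimers through a shared domain at the carboxyl end and recognise GC-rich palindromes. In the mouse, Tfap2b is needed for the distal convoluted tubule to form, and its loss leads to cystic kidneys, while Tfap2a acts in the more distal nephron and the collecting duct. Tfap2c is best known from trophoblast and germ cells, Tfap2d from the midbrain and Tfap2e from olfactory neurons. Emx1 is best known as a regulator of the cerebral cortex and, in zebrafish, of the distal pronephros. Sall3 belongs to the spalt family with Sall1, a regulator of nephron progenitors.

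The 3 AP-2 genes that made up nearly all AP-2 reads are introduced by the sequence before a transcription start. Each line gives the 250 bases before a RefSeq start (build GRCm38.p6), written 5′ to 3′ in the direction of the gene. Capitals mark GGAATG, the core of the motif bound by the TEAD partners of YAP, searched on both strands. The Tfap2e window lies at chr4:126736270-126736519 on the minus strand, the Tfap2b window at chr1:19211804-19212053 on the plus strand and the Tfap2a window at chr13:40734921-40735170 on the minus strand.
Tfap2e: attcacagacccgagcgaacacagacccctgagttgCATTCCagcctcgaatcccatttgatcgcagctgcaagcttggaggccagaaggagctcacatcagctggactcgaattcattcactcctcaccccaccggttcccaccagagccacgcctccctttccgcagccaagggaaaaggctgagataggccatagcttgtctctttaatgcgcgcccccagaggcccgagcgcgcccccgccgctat
Tfap2b: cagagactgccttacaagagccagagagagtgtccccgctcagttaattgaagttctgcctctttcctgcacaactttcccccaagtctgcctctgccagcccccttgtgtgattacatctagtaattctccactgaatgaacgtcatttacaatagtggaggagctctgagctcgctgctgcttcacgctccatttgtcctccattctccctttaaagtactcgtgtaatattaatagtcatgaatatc
Tfap2a: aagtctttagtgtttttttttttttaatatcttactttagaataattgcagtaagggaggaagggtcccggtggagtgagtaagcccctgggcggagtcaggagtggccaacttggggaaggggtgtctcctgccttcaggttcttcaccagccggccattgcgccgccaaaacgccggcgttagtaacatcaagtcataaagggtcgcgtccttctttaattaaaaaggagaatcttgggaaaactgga

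The TEAD core stood once before Tfap2e, on the strand opposite to the gene, from 214 to 209 bases before its start. It was not in the windows printed for Tfap2b and Tfap2a. Of 32851 windows of 250 bases before RefSeq starts, 12.6% held this core on either strand. The AP-2 palindrome GCCNNNGGC stood in none of the 8 windows found for Tfap2a, Tfap2b, Tfap2d, Tfap2e and Emx1, and in 13.7% of all windows, and none of those 8 other than that of Tfap2e held the TEAD core. A match describes the letters only, and neither motif was tested for binding. In the GENCODE annotation, all 250 bases of the Emx1 window lie within an exon of Emx1. So do 180 bases of a Tfap2a window not printed here and 14 bases of a Tfap2d window, each within an exon of its own gene. The absence of a motif from the Emx1 window thus does not describe sequence upstream of the gene. Tfap2b has a further annotated start upstream of the window shown, as does Tfap2a, and the windows before those further starts were not searched.

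Depth sets how firmly these levels can be read. Library totals, worked back from the deposited values, were, in units of 1e6 reads, between 22.8 and 25.2 for the replicate 2 libraries and between 78.2 and 87.1 for the replicate 1 libraries. Levels are given as scaled RPKM, which is reads per kilobase of gene length and per 1e6 reads, divided by a factor that evens out library composition. Yap1 itself stood at 35.7 ± 4.002 scaled RPKM in controls and 35.4 ± 0.839 in mutants (SD, n = 4), and whether transgene reads count on it is not known here. Of the 7 members, 5 passed the filter on low read counts, and Tfap2c and Tfap2d did not.

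Among the AP-2 genes Tfap2b, the family member required for the distal convoluted tubule, was the most abundant in every library. It lies on chromosome 1 from 19208908 to 19238845. Scaled RPKM in controls was 3.51 and 4.12 in males and 3.34 and 4.38 in females, with the replicate 1 library named first here and below. In mutants it was 4.38 and 4.34 in males and 3.93 and 3.43 in females. The ranges of the genotypes overlapped, with means of 3.84 ± 0.491 in controls and 4.02 ± 0.446 in mutants (SD, n = 4) and a log2 fold change of 0.07 (SE 0.12).

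The Tfap2b difference was not the same in every set of libraries. Among the 4 deep replicate 1 libraries the log2 fold change was 0.27 (SE 0.12), and among the 4 shallow replicate 2 libraries it was -0.13 (SE 0.18). The mutant was higher than the control in the deep pair of each sex and in the shallow males, and lower in the shallow females. The distal convoluted tubule gene Slc12a3, by contrast, was far lower in every mutant library, as given below.

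Tfap2a, which lies on chromosome 13 from 40713802 to 40738238, was the second of the family in controls. Its scaled RPKM was 1.54 and 1.63 in control males and 2.17 and 1.81 in control females. In mutants it was 3.02 and 2.32 in males and 3.06 and 2.44 in females. All 4 mutant libraries stood above all 4 control libraries. This was a log2 fold change of 0.58 (SE 0.13), or 1.49-fold, with 0.70 from the deep libraries and 0.45 from the shallow ones.

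The long noncoding RNA gene Gm26688 overlaps Tfap2a, and whether reads were counted by strand is not given in the sources used here. Gm26688 had 119 reads in the controls and 135 in the mutants, against 1771 and 2968 for Tfap2a. Its log2 fold change was 0.03 (SE 0.13; limma, adjusted p = 0.9).

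Tfap2e showed the widest gap between the genotypes. The gene lies on chromosome 4 from 126716003 to 126736269. Controls held 3 and 0 reads in males and 2 and 0 in females. Mutants held 717 and 146 reads in males and 563 and 125 in females. In scaled RPKM the controls were at 0.0172, 0, 0.0122 and 0, and the mutants at 3.89, 2.92, 3.28 and 2.31.

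The 0 reads of the shallow control libraries allow up to 0.128 reads per 1e6 in the male and 0.131 in the female library, for counting error only. Per 1e6 reads, the pooled mutant libraries held 299.8 times the Tfap2e reads of the pooled controls, with an exact 95% counting interval from 128 to 925. This interval comes from 5 control reads and covers counting error only, not the spread between libraries. The fitted log2 fold change was 4.88 (SE 0.17) at a pseudocount of 0.1, which was 10th among the rises of all 18156 genes tested. Deep libraries gave 5.001 and shallow ones 4.75. Its size depends on the constant added before taking logs, at 7.61 with 0.01 and 2.01 with 1, so it is not a measure of the true ratio. Tfap2e passed the read filter only through the mutant libraries.

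Tfap2c and Tfap2d were near the limit of detection in both genotypes. Tfap2c, on chromosome 2 from 172545678 to 172558622, had 8, 3, 6 and 2 reads in controls and 10, 1, 17 and 3 in mutants, in the order of libraries used above. Tfap2d, on chromosome 1 from 19103022 to 19173948, had 4 reads in male control replicate 1 and 0 in the other control libraries, and 1, 0, 3 and 1 in mutants. Per 1e6 reads the pooled mutant-to-control ratio was 1.58 for Tfap2c (95% counting interval 0.863 to 2.95) and 1.21 for Tfap2d (0.26 to 6.09). A genotype difference was not detectable for either at this depth.

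**Figure D1:**
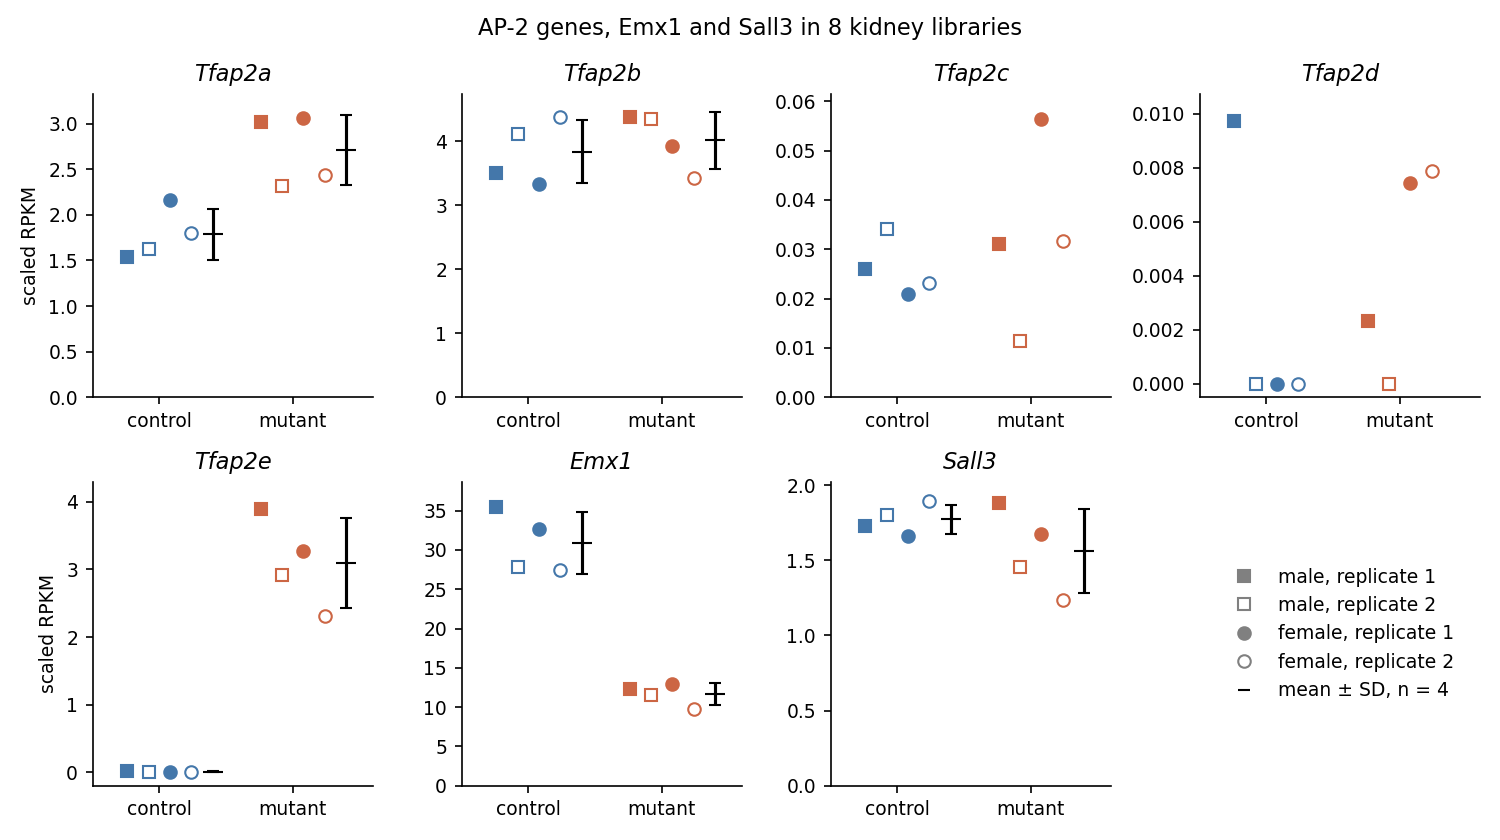
Scaled RPKM of the 7 genes in the 8 libraries, 1 panel per gene with its own axis starting at or near 0, with controls in blue and mutants in orange. Squares are males, circles females, filled symbols replicate 1 and open symbols replicate 2, and bars give the mean and SD of 4 libraries except for Tfap2c and Tfap2d, which had 50 and 9 reads in all. Mutants stand above controls for Tfap2a and Tfap2e and below them for Emx1, and the genotypes overlap for Tfap2b and Sall3.

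Taken per unit of length, the summed AP-2 level was higher in mutant kidneys, and most of the added level was Tfap2e. Mean Tfap2e was 0.00735 scaled RPKM in controls and 3.10 in mutants. Tfap2e passed the read filter only through the mutant libraries, and the members were chosen on this contrast, so the sum is a description. The summed level of the 5 genes was 5.66 ± 0.462 scaled RPKM in controls and 9.87 ± 1.31 in mutants (SD, n = 4). Tfap2b made up between 60.3% and 71.3% of this sum in controls and between 38.1% and 45.3% in mutants. Its own mean level was 3.84 in controls and 4.02 in mutants, so its lower share follows from the larger sum. Tfap2a made up 31.6 ± 5.06% in controls and 27.5 ± 2.65% in mutants, and Tfap2e 0.139 ± 0.168% and 31.2 ± 2.61% (SD, n = 4). In mutants the order from highest to lowest was thus Tfap2b, Tfap2e and Tfap2a by mean level, and the libraries of Tfap2e and Tfap2a overlapped between 2.32 and 3.06. The level of Tfap2a relative to Tfap2b was 0.474 ± 0.118 in controls and 0.679 ± 0.103 in mutants, with overlapping libraries.

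**Figure D2:**
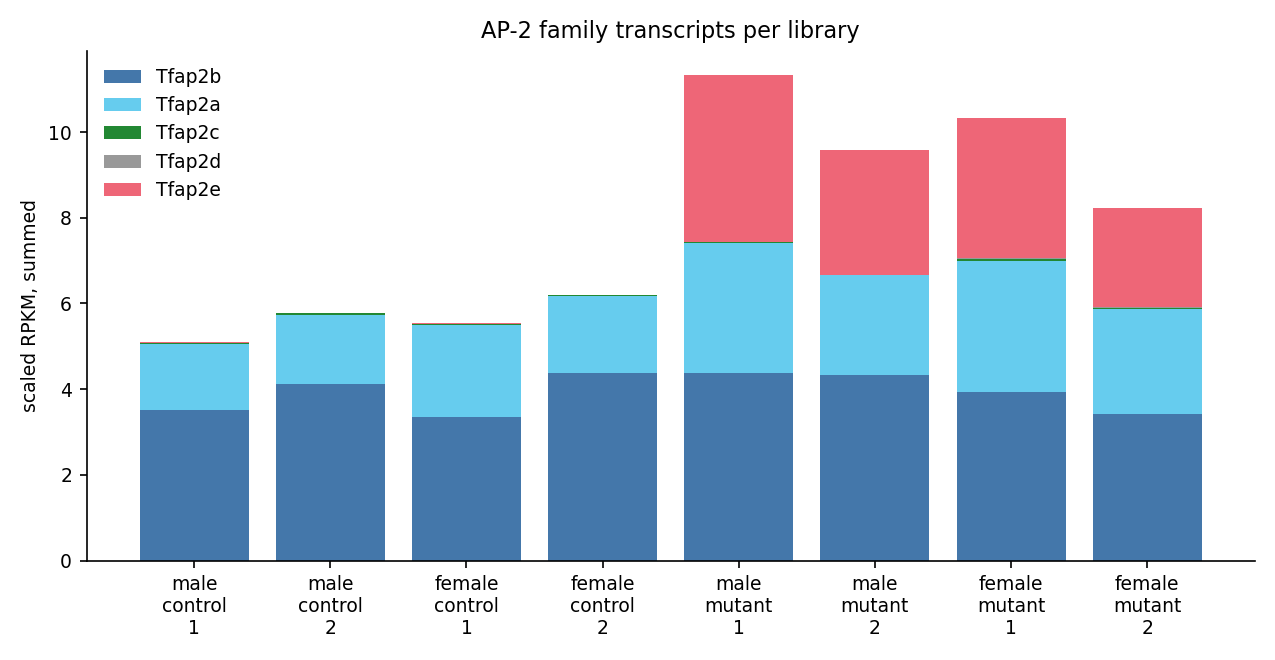
Summed scaled RPKM of the 5 AP-2 genes in each of the 8 libraries, stacked by gene, with the replicate number under each bar. Control bars reach between 5.10 and 6.21 and mutant bars between 8.22 and 11.3, and the Tfap2e segment is visible in the 4 mutant bars.

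Emx1 was the most abundant member in both genotypes and was lower in mutants. It lies on chromosome 6 from 85187931 to 85204463. Scaled RPKM was 35.5 and 27.9 in control males and 32.7 and 27.5 in control females. In mutants it was 12.3 and 11.5 in males and 12.9 and 9.80 in females. All 4 mutant libraries lay below all 4 control libraries.

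The log2 fold change of Emx1 was -1.40 (SE 0.12), a level 2.64-fold lower, with -1.43 from the deep libraries and -1.37 from the shallow ones. In both genotypes the replicate 2 libraries were lower than the replicate 1 libraries of the same sex. Slc12a3, the gene at which the Cre allele sits, fell from 14.2 ± 1.97 to 1.40 ± 0.415 scaled RPKM (SD, n = 4; log2 fold change -3.28, limma, adjusted p = 1.4e-05). Emx1 transcripts per Slc12a3 transcript, both per unit of length, thus stood at 2.24 ± 0.63 in controls and 8.67 ± 1.65 in mutants. All 4 mutant ratios, from 6.93 to 10.4, were above all 4 control ratios, from 1.74 to 3.13.

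Sall3, on chromosome 18 from 80966989 to 80987021, had similar means in both genotypes. Scaled RPKM was 1.73 and 1.80 in control males and 1.66 and 1.89 in control females. In mutants it was 1.88 and 1.46 in males and 1.67 and 1.24 in females. The genotypes overlapped, and the mutant libraries were more spread out than the controls, with coefficients of variation of 17.7% and 5.54%. This gave a log2 fold change of -0.19 (SE 0.13).

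The Sall3 difference was on opposite sides of 0 in the deep and shallow sets, at 0.06 (SE 0.14) for deep libraries and -0.43 (SE 0.23) for shallow ones. Both mutant replicate 2 libraries were lower than all other libraries. A term for a genotype difference that depends on replicate number, added after these values were seen, gave -0.49 for Sall3 (shallow minus deep, 95% interval -0.96 to -0.03; limma, unadjusted p = 0.0403, adjusted p = 0.834). For Tfap2b it gave -0.41 (95% interval -0.84 to 0.03; unadjusted p = 0.0639, adjusted p = 0.834). Across all genes tested this term called 0, which is 0%, while 768 genes had an unadjusted p under 0.05 with limma. A dependence on replicate number, which coincides with depth, was therefore not shown for Sall3 or Tfap2b.

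As a description only, 2 of the 5 members in the fit across all genes were past its adjusted p of 0.05 in the higher direction, Tfap2e among them, and 1 in the lower, while 12.6% and 13.6% of all tested genes were. The genotypes did not overlap for the same 3, Tfap2a, Tfap2e and Emx1, and for 30.4% of all tested genes. The contrast had been used to choose the members, and Tfap2e entered the fit only through the mutant libraries, so these counts are no test of the members. Tfap2a was not past the threshold in the shallow libraries alone or in either sex alone, each with 4 libraries.

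Sex had not entered the choice of members and was tested. The male-to-female log2 difference was -0.17 for Tfap2a (95% interval -0.47 to 0.12), 0.12 for Tfap2b (-0.15 to 0.38) and 0.16 for Tfap2e (-0.22 to 0.54). It was 0.08 for Emx1 (-0.19 to 0.34) and 0.09 for Sall3 (-0.21 to 0.40). With limma 0 of the 5 passed, each at an adjusted p of 1 and an unadjusted p between 0.216 and 0.534, so 0 had an unadjusted p under 0.05, and limma-voom also called 0 of the 5. Among all tested genes 0.033% were called for sex. The control levels of Tfap2e lay far below the 0.1 added before taking logs. Its sex value therefore rests mainly on the mutant libraries.

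The genotype difference was also set against itself between the sexes. It was 0.71 in males and 0.45 in females for Tfap2a, 5.003 and 4.75 for Tfap2e, and -1.39 and -1.40 for Emx1 on the log2 scale. For Tfap2b the values were 0.19 and -0.06, and for Sall3 -0.09 and -0.28. The interaction was between 0.01 for Emx1 and 0.26 for Tfap2a, and its 95% intervals reached from -0.57 to 0.59 for Emx1 and from -0.35 to 0.88 for Tfap2a. For Tfap2e, with controls near 0, the interaction mainly compares mutant males with mutant females. Of the 5 members 0 passed (limma, adjusted p between 0.948 and 0.995; unadjusted p between 0.312 and 0.969), as did 0% of all genes by both limma and limma-voom, with 555 genes under an unadjusted p of 0.05 with limma. Over all genes, 1 was called without male control replicate 1, without male mutant replicate 1 or without male mutant replicate 2, in place of 0.

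**Figure D3:**
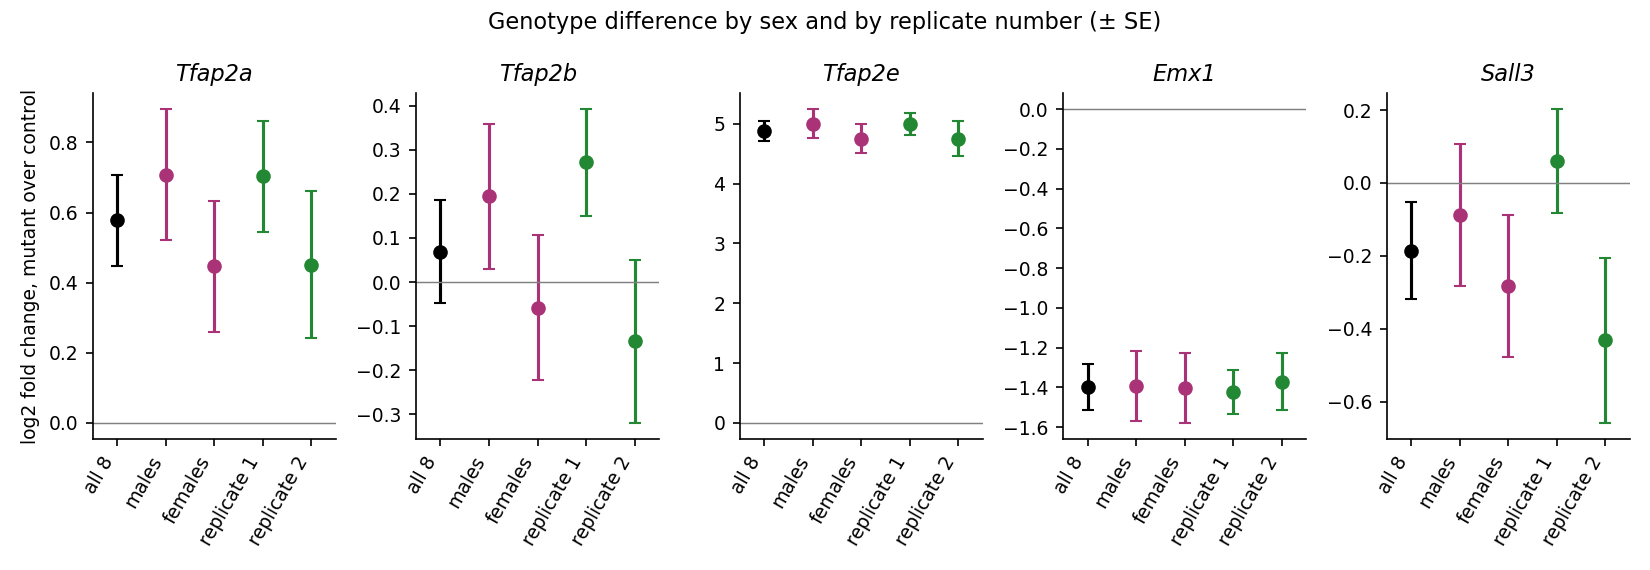
Fitted log2 fold change of mutants over controls with its standard error for the 5 tested members, in all 8 libraries (black), by sex (purple) and by replicate number (green), each panel with its own axis and 0 marked by a line. Tfap2a, Tfap2e and Emx1 keep their direction in the 4 subsets, whereas Tfap2b and Sall3 lie on opposite sides of 0 in replicate 1 and replicate 2.

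Genes next to the members were also examined. For each member the nearest tested genes on either side, up to a pair per side in the RefSeq order, gave 24 neighbours, of which 2 rose and 4 fell, a share near that of all tested genes (12.6% higher and 13.6% lower). The neighbours of Tfap2e are close by. Psmb2, a proteasome subunit gene 6.29 kb away, was at 138.7 ± 6.002 scaled RPKM in controls and 139.4 ± 6.29 in mutants (SD, n = 4). Ncdn, a neuronal gene 7.48 kb away on the other side, was at 6.68 ± 0.796 and 6.91 ± 0.666.

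The 95% interval of the fold of mutants over controls was 0.894 to 1.13 for Psmb2 and 0.865 to 1.24 for Ncdn (limma, adjusted p = 0.962 and 0.797). The neighbours beyond them, 5730409E04Rik and AU040320, did not pass either. On chromosome 6, Sfxn5, a mitochondrial carrier gene 8.59 kb from Emx1, fell with a log2 fold change of -0.55 (limma, adjusted p = 0.0025). Spr, the sepiapterin reductase gene 50.2 kb on the other side of Emx1, fell by 0.40 on the log2 scale (adjusted p = 0.0262). Npm3-ps1 and Rab11fip5, the outer pair, did not pass.

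Near Tfap2a, Gcnt2 rose (log2 0.50, adjusted p = 0.0131), and near Sall3, Mbp rose (0.57, 0.013) at a distance of 1488 kb. Crispld1, 1442 kb from Tfap2b, fell (-0.55, 0.0285), and so did Bmp7 near Tfap2c (-0.39, 0.00703). Tfap2d and Tfap2b are themselves neighbours, 35 kb apart, and shared no expression level, as Tfap2d had 9 reads in all against 12186 for Tfap2b.

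Once the mean of each genotype was removed, the members were compared library by library over the 8 libraries, as a description. The most alike were Tfap2e and Emx1 (Pearson r = 0.82), then Tfap2e and Sall3 (0.80), then Sall3 and Tfap2b (0.69). The controls of Tfap2e lay near 0, so its values here come mainly from the mutant libraries. Tfap2a and Tfap2b did not move together (-0.07). These points share library depth and replicate number. Among 14722 other genes, the 3 most alike were Paqr4, Dynll2 and Etv4 for Tfap2a (r from 0.96 to 0.99) and Slc12a4, Clic5 and Adamts15 for Tfap2b (0.97 to 0.98). They were Aamp, Gyltl1b and the distal nephron regulator Irx2 for Tfap2e (0.97 to 0.98), Ubald2, Pex14 and Rnf220 for Emx1 (0.98 to 0.99), and Ctbp2, Creld1 and Ifi30 for Sall3 (0.97). Each is the top of 14722 values over 8 libraries, so its height owes in part to that selection.

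Cofactors and inhibitors of AP-2 proteins were called about as often as all tested genes, of which 12.6% rose and 13.6% fell. The same shares apply to the lists and markers below. This list and those below were chosen with earlier results of these data known. Their counts are therefore a description and no test of the lists. Of 10 genes 2 rose and 8 did not pass, with a median log2 fold change of 0.06 against -0.01 over all tested genes. Kctd1, which encodes a repressor of AP-2 activity, rose from 4.83 ± 0.363 to 7.002 ± 0.425 scaled RPKM (SD, n = 4; log2 0.53, limma, adjusted p = 0.00235). Cited2, a coactivator that links AP-2 to the acetyltransferases p300 and CBP, rose from 41.9 ± 1.84 to 66.8 ± 5.96 (log2 0.67, adjusted p = 0.00014). The Kctd1 call was lost in the shallow libraries alone (adjusted p = 0.103) and in females alone (0.104).

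Genes reported as AP-2 targets in other cell types moved in both directions. Of 16 genes 5 rose, 3 fell and 8 did not pass, with a median log2 fold change of 0.02. The list was not split by the direction in which AP-2 proteins are reported to act. Its counts and median are therefore no measure of AP-2 activity. Among all tested genes 12.6% rose and 13.6% fell. Krt18, a simple epithelial keratin, rose from 90.7 ± 4.597 to 843 ± 94.3 scaled RPKM (SD, n = 4; log2 3.21, limma, adjusted p = 4.42e-07). Egfr, the EGF receptor gene, rose by a log2 of 1.57 (adjusted p = 0.000291), F2r, a thrombin receptor gene, by 0.92 (0.00221) and Cdkn1a, a cell cycle inhibitor, by 0.54 (0.000666). Igfbp5, which encodes an IGF-binding protein, fell by 1.08 on the log2 scale (0.00135). Erbb3, a receptor tyrosine kinase gene and the last of the 5 that rose (0.59, 0.0452), did not pass when any 1 of 6 libraries was left out (adjusted p from 0.0762 to 0.12), namely both male controls, female control replicate 1, both male mutants or female mutant replicate 1. With a library left out, 4 to 6 genes of the list rose, and without male control replicate 1, 5 in place of 3 fell.

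In the list of other distal nephron and collecting duct regulators, likewise chosen with earlier results known, falls were more frequent than rises. Of 24 genes 10 fell, 2 rose and 12 did not pass, with a median log2 fold change of -0.22. The share of all tested genes was 13.6% for falls and 12.6% for rises. Gata2 fell from 6.92 ± 0.546 to 3.92 ± 0.432 scaled RPKM (SD, n = 4; log2 -0.81, limma, adjusted p = 0.000125), and Elf5, a principal cell regulator, fell by 0.87 on the log2 scale (0.000206). Prox1 (-1.28, 0.000239) and Hmx2 (-1.25, 0.00139), both at under 2 scaled RPKM, also fell. Elf3, an epithelial ETS factor, rose by 0.94 (0.000223). The other gene that rose, Grhl2, lost its call without any 1 of 6 libraries, namely both male controls, female control replicate 1, both male mutants or female mutant replicate 1, so that 1 in place of 2 genes then rose. With a library left out, 7 to 10 genes fell. Ehf (-0.28, 0.0431) passed in 1 of these 8 fits, the one without male control replicate 1, and did not pass with RPKM as deposited (0.0705) or with median-of-ratios scaling (0.0521). Dmrt2 (-0.50, 0.0326) did not pass without either male control, female control replicate 2, male mutant replicate 1 or female mutant replicate 2, and Esrrg (-0.66, 0.0138) without male mutant replicate 1 (0.0509).

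The nearest relatives of Emx1 and Sall3 did not pass. Emx2, which is needed for the ureteric bud, was at 34.1 ± 1.31 scaled RPKM in controls and 30.9 ± 3.45 in mutants (SD, n = 4; log2 -0.15, limma, adjusted p = 0.29). Sall1 had a log2 fold change of -0.22 (adjusted p = 0.304) and Sall2 of -0.19 (0.225). Sall4 had too few reads to be tested.

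Distal convoluted tubule genes, the setting in which Tfap2b, Emx1 and Sall3 are known to be expressed, were mostly lower. Of 19 genes 12 fell, 2 rose and 5 did not pass, while 13.6% of all tested genes fell and 12.6% rose. The median log2 fold change of the list was -0.96, against -1.40 for Emx1 and 0.07 for Tfap2b. After Slc12a3, the lowest p-values were those of Tmem52b (log2 -1.10, limma, adjusted p = 0.000104), the kinase gene Wnk4 (-1.03, 0.000306), Fxyd2, a sodium pump subunit (-0.98, 0.000328), and the potassium channel gene Kcnj10 (-1.38, 0.00059). Bsnd (-0.12, 0.362), Cul3 (0.07, 0.577), Oxsr1 (0.25, 0.105), Cnnm2 (-0.03, 0.866) and Slc41a3 (-0.16, 0.351) did not pass. Of the 2 that rose, Trpm6 and Stk39, Trpm6 was no longer past the threshold when male mutant replicate 1 was left out (adjusted p = 0.0511). Among those that fell, Wnk1 (-0.59, 0.023) passed in 2 of the 8 fits with a library left out, those without male control replicate 1 or male mutant replicate 2.

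Of 11 connecting tubule genes 6 fell, 2 rose and 3 did not pass, while 13.6% of all tested genes fell and 12.6% rose. The median log2 fold change of the list was -0.43. Klotho (Kl) levels went from 34.4 ± 4.99 down to 9.19 ± 1.22 scaled RPKM (SD, n = 4; log2 -1.89, limma, adjusted p = 1.78e-05). Calb1, a calcium-binding protein gene, fell by 1.88 on the log2 scale (0.00023), Hsd11b2 by 1.12 (0.000561) and Slc8a1 by 0.90 (0.00342), while the potassium channel gene Kcnk1 rose by 0.67 (0.000242). Scnn1a (0.10, 0.812), Scnn1g (-0.31, 0.187) and Atp2b1 (-0.15, 0.412) did not pass. Scnn1b (-0.43, 0.0199), among the 6 that fell, did not pass without male control replicate 2 (0.0511) or male mutant replicate 1 (0.0572).

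**Figure D4:**
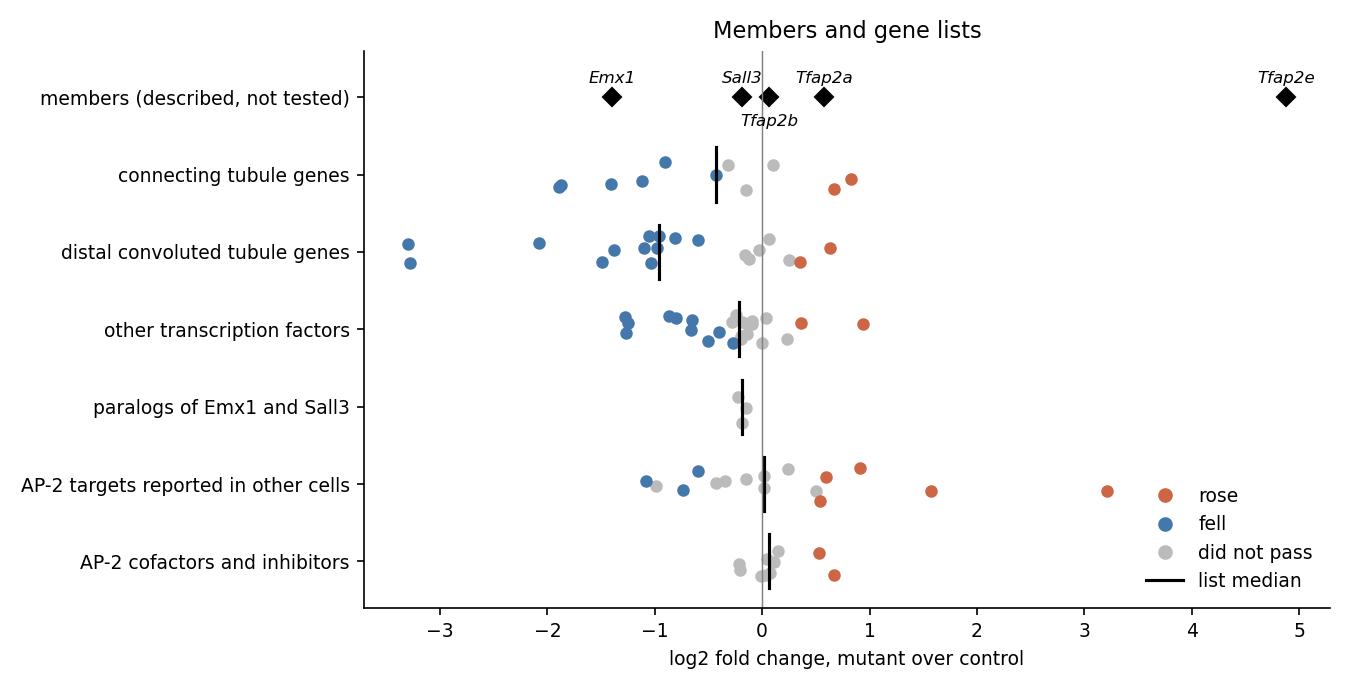
Log2 fold change of mutants over controls for each tested gene of the 6 lists, coloured by whether it rose, fell or did not pass at an adjusted p of 0.05 with limma, with list medians as black bars and the 5 tested members as diamonds in the top row. Emx1 lies below the distal convoluted tubule median of -0.96, Tfap2b and Sall3 lie near 0 and Tfap2e at 4.88 lies to the right of every list gene.

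AP-2 genes are also expressed outside the tubule, so markers of other cell types were measured. Basal and squamous markers, which go with Tfap2a and Tfap2c in skin, summed to between 8.004 and 10.4 scaled RPKM in controls and between 5.42 and 6.40 in mutants. Of 5 tested, 1 fell (Krt14, log2 -0.60, limma, adjusted p = 0.00319), and Krt5, Trp63, Krt1 and Krt10 did not pass. Dsg3, the untested one, had 0 reads in controls. Krt14 did not pass in the deep libraries alone (0.0521) or the shallow ones alone (0.142), whereas Krt5 passed, with lower mutant levels, in each of these sets alone (0.0246 and 0.04).

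Sympathetic and chromaffin markers, which go with Tfap2b in that lineage, summed to between 0.486 and 0.916 in controls and between 0.357 and 0.561 in mutants, and of 3 tested, Chga fell (-1.07, 0.00747). Markers of nerve glia summed to between 0.976 and 1.11 in controls and between 0.658 and 1.13 in mutants, and those of adrenal cortex to between 0.643 and 0.782 and between 0.501 and 0.704. The 4 glial markers did not pass, the nearest being Foxd3 (-0.47, 0.0687), which passed when female control replicate 2 was left out (0.0152). The 3 adrenal markers tested did not pass, with Cyp11a1 nearest (-0.42, 0.139), and Cyp11b1 and Cyp11b2 had 0 reads in every library. The part of these cell types in the AP-2 levels was not tested.

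Urothelial markers were split, as Upk3b (3.11, 3.1e-05) and Krt20 (3.70, 6.38e-05) rose, Upk1a (-0.89, 0.0176), Upk2 (-1.28, 0.00675) and Upk3a (-0.90, 0.00105) fell, and Upk1b (-0.53, 0.102) did not pass. The sum over the 6 was between 39.0 and 67.4 in controls and between 66.8 and 80.5 in mutants. Its higher mutant values came from Upk3b (mean 3.84 in controls and 32.5 in mutants) and Krt20 (1.10 and 15.5). The means of Upk1a, Upk1b, Upk2 and Upk3a were lower in mutants, so the sum does not describe the urothelial markers as a set. Upk1a no longer passed when male mutant replicate 1 (adjusted p = 0.0614) or female mutant replicate 1 (0.0554) was left out, nor did Krt20 in the shallow libraries alone (0.333). Upk1b passed without female control replicate 1 (0.0394). All 5 macrophage markers rose, C1qb by a log2 of 1.81 (7.82e-06), and summed to between 48.04 and 59.01 in controls and between 179.8 and 210.1 in mutants. The part of the urothelial and macrophage genes in the member differences was not tested.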

How the data were processed

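Poly(A)-selected RNA of kidney was sequenced in 8 libraries. The authors deposited RPKM per gene symbol with a gene length column, and STAR, featureCounts and the build mm10 are named in the submitters' processing notes, without versions. No source used here gives the annotation release, the strand setting or the treatment of multi-mapping reads. RPKM multiplied by length gave whole reads, within 0.01, for all 179720 values above 0. Genes with at least 0.2 reads per 1e6 in 2 libraries and 15 reads in all were tested, 18156 of 35976. Scaled RPKM is RPKM over a TMM factor (M trim 0.3, A trim 0.05). The model, by limma 3.58.1 under R 4.3.3 with trend and robust options, took log2 of scaled RPKM plus 0.1, with genotype and sex as terms, or with 4 group means for the interaction. Benjamini-Hochberg adjustment covered all tested genes. Fold changes are on the log2(value + 0.1) scale, which understates the change of low genes. The script was tested on simulated data.

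The members and gene lists were chosen with earlier results of these data known. Named from each list were up to 5 genes past the threshold with the smallest p and, where at most 5 did not pass, those too. Further genes that rose, fell or lost a call are named outside this rule, after their values were seen. Gene positions and windows before starts come from RefSeq (GRCm38.p6), which is the build mm10, and 5 of the 7 members have a window used here. Counting intervals are exact, at 95%. The alternatives were other pseudocounts, filters and scalings, limma-voom on the recovered reads and a replicate block. Fits were also run with each library left out, and with each replicate number and each sex alone.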

Additional observations from a re-analysis of the deposited data

Results flagged for a closer look

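Within the 4 control libraries, the Tfap2d level of male control replicate 1 stood apart at 0.00975 scaled RPKM, with the other control libraries at 0. This value comes from 4 reads. The check of the highest and lowest library marks about 1 in 20 groups of 4 by chance, and it was applied to both genotypes of the members.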

How the results depend on the processing

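The members' log2 fold changes were recomputed under 20 alternatives, giving 100 values, of which 93 moved by less than the spread between replicates. The other filters and the replicate block could not change these values, so their part of the 93 is no sign of stability. Tfap2e moved with the pseudocount (7.61 at 0.01 and 2.01 at 1) and with limma-voom (7.89). Tfap2b and Sall3 moved in the deep libraries (0.27 and 0.06) and in the shallow ones (-0.13 and -0.43). With single libraries left out, ranges were 0.48 to 0.67 for Tfap2a, -0.00193 to 0.17 for Tfap2b, 4.77 to 4.999 for Tfap2e, -1.48 to -1.32 for Emx1 and -0.28 to -0.09 for Sall3. Of the members, 0 were called for sex or the interaction under every alternative run.

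For all genes, 4754 were called for genotype, 2094 in males alone and 2047 in females alone, and 3626 to 4808 with a library left out. The interaction called 1 gene at a pseudocount of 1, 1 gene with the replicate block, and 0 to 1 with a library left out.

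Of the cofactors, 1 rose in the shallow libraries and 1 in females. Of the AP-2 targets, 3 rose in females, and 5 fell with the replicate block, 0 in males, 1 in females and 3 to 5 with a library left out. Of the other regulators, 1 rose in the shallow libraries, 1 in males, 1 in females and 1 to 3 with a library left out, and 4 fell in males. Of the distal convoluted tubule genes, 1 rose in the deep libraries, 0 in the shallow ones, 0 in males, 1 in females and 1 to 2 with a library left out, and 7 fell in males. Of the connecting tubule genes, 1 rose in females, and of the relatives of Emx1 and Sall3, 1 fell in the shallow libraries. Fits within 1 sex or 1 replicate number use 4 libraries. For the other shifts, the cause was not tested.

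Samples share a replicate number across groups, but the numbers are not stated to pair them. Correlations of deviations from group means in the 12 same-numbered pairs ran from -0.00291 to 0.378, with 8 over 0.1. The libraries of a group deviate from their mean by equal and opposite amounts. Each correlation is therefore counted again in its mirror pair, and the 12 values are not independent. The replicate block called 5423 genes for genotype. Replicate number is balanced over genotype and sex, so the block could not change the members' log2 fold changes.

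Depth limits Tfap2c and Tfap2d, with 50 and 9 reads in all, and the control level of Tfap2e.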
